A study of Mus musculus with 6 samples.

Results

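The genes described here are 9 members of the STAT and SOCS families, found by gene name in a count table of 54532 genes from infarct macrophages. They comprise the transcription factors Stat2, Stat3, Stat4, Stat5a, Stat5b and Stat6, and the feedback inhibitors Socs1, Socs3 and Cish. All 9 were listed once in the table, and all 9 passed the filter on low counts that left 14522 genes for testing. They were compared between RNA-seq libraries of 3 ITGA5 fl/fl and 3 Myα5KO infarcted hearts, to ask whether myeloid loss of the integrin chain α5 changes the machinery of cytokine signalling.

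Both groups were C57BL/6 mice of 12 weeks that carried floxed Itga5 alleles and had a permanent, non-reperfused coronary occlusion 7 days before harvest. The Myα5KO mice also carried Cre recombinase driven by the LyzM promoter, which is active in granulocytes as well as in monocytes and macrophages, while the ITGA5 fl/fl littermates did not. Hearts were digested individually, Ly6G-positive neutrophils were depleted on magnetic columns, and the Ly6G-negative CD11b-positive fraction was taken as macrophages. This magnetic selection also retains other CD11b-positive cells. Total counts ranged from 15424451 to 18419287 per library, and each of the 3 Myα5KO totals exceeded each ITGA5 fl/fl total. Transcripts of Itga5, the deleted gene, averaged 607 ± 43.2 CPM (read counts scaled to a common library size by the TMM method; SD, n = 3) in ITGA5 fl/fl libraries and 48.7 ± 1.48 CPM in Myα5KO libraries, or 8.02% of control.

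STAT proteins are latent transcription factors. A cytokine that binds its receptor activates the attached JAK kinases, which phosphorylate STATs, and STAT dimers then enter the nucleus and bind DNA. SOCS proteins and CISH are products of STAT target genes that bind receptors or JAKs and dampen the same signal. In macrophages, type I interferons act through STAT2, IL-10 and IL-6 through STAT3, GM-CSF through STAT5, and IL-4 and IL-13 through STAT6, whereas STAT4 is best known for the response of T and NK cells to IL-12. The libraries measured messenger RNA and held no measure of STAT protein or phosphorylation.

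Several of these genes lie side by side in the mouse genome (build GRCm38). Stat4 spans chr1:51987148-52107189 on the plus strand. Stat5b, at chr11:100780731-100850724 on the minus strand, is followed after 8626 bases by Stat5a, at chr11:100859351-100885169 on the plus strand. Stat3 follows on the minus strand at chr11:100885098-100939540, so that its 3′ end and that of Stat5a overlap by 72 bases. Stat6 (chr10:127642986-127660957) and Stat2 (chr10:128270559-128292849) share chromosome 10, with 26 protein-coding genes between them. Socs3 lies at chr11:117966079-117970047, Cish at chr9:107296026-107302784 and Socs1 at chr16:10782240-10785536. All 9 are annotated as protein-coding.

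Sequence around the RefSeq start sites of each gene was read from promoter windows of GRCm38.p6. These hold 250 bases before and 50 after each start site, and gave 12 windows for the 9 genes. Some start sites, such as those of Socs3 and Cish and the second of Stat4, lie within the gene spans given above. Stat2 and Stat3 are shown in full upstream of the start because their transcripts moved in opposite directions, as described below. For Stat4, Socs1, Socs3 and Cish the 30 bases around the match are shown. Capitals mark matches, on either strand, to 3 letter patterns: TTCNNNGAA, the core shared by most STAT dimers, the same TTC and GAA with 4 bases between them, the wider spacing that STAT6 accepts, and GAAA followed after 2 bases by GAAA, the core of elements bound by the interferon complex of STAT2 and IRF9. The Stat2 sequence is chr10:128270248-128270497 (plus strand) and the Stat3 sequence chr11:100939541-100939790 (minus strand). The shorter stretches are chr1:52008133-52008162 for the second start of Stat4, chr16:10785597-10785626 for Socs1, chr11:117969501-117969530 for Socs3 and chr9:107296654-107296683 for Cish, each on the strand of its gene.
Stat2: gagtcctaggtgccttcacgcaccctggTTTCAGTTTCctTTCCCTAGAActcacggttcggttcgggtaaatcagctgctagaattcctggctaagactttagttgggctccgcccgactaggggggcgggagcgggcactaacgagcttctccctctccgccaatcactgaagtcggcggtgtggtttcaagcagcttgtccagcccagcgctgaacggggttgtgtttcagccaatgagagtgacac
Stat3: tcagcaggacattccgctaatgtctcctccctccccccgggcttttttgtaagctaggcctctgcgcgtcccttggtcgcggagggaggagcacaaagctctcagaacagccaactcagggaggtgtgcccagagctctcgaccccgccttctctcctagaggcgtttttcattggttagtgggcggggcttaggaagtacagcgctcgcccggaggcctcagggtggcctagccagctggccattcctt
Stat4: aatgtcttcaGAAAGTGAAAtttagaacgg
Socs1: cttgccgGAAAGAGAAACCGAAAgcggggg
Socs3: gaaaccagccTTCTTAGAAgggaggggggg
Cish: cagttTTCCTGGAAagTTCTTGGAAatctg

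TTCNNNGAA was present in 2 of the 12 windows, those of Socs3 and Cish, and in 8.3% of 32851 promoter windows of the same length. In Cish it occurred at 2 places directly after the start site. The pattern with 4 bases between was found in 1 window, that of Stat2, against 6.95% of all windows. The GAAA repeat occurred in 3 windows, those of Stat2, Stat4 and Socs1, with 2 overlapping matches in Socs1, against 3.44% of all windows. This repeat was added to the patterns after the data were seen, so its share is no test. The windows of Stat3, Stat5a, Stat5b and Stat6 held none of the 3 patterns. These matches describe letters in the sequence only, and no binding was measured.

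Among the 9 genes, transcripts of Stat2 rose and those of Stat3 and Stat4 fell in Myα5KO macrophages. The other 6 genes did not pass the test, at an adjusted p of 0.05 or less by the quasi-likelihood test of edgeR with Benjamini-Hochberg adjustment over all 14522 genes. Thus 3 of 9 members were called, 1 higher and 2 lower, where 8.75% of all tested genes were called, 3.56% higher and 5.19% lower. The libraries of the groups did not overlap for 7 of the 9 members, against 28.6% of all tested genes. They were higher for 2 of these 7 and lower for 5, beside 14.9% and 13.8% of all tested genes. The median log2 fold change (Myα5KO over ITGA5 fl/fl) of the members was -0.19, beside 0.015 for all tested genes. The members were chosen with earlier results of these data known, so these comparisons with all tested genes are no test. Of the 1271 genes called with TMM scaling, 40.7% were higher. Scaling by library size alone called 1730 genes, of which 70.1% were higher, so small changes depend on how the libraries are scaled. Because the RNA came from bulk cell suspensions, fewer cells of a type and less RNA per cell cannot be told apart.

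**Figure D1:**
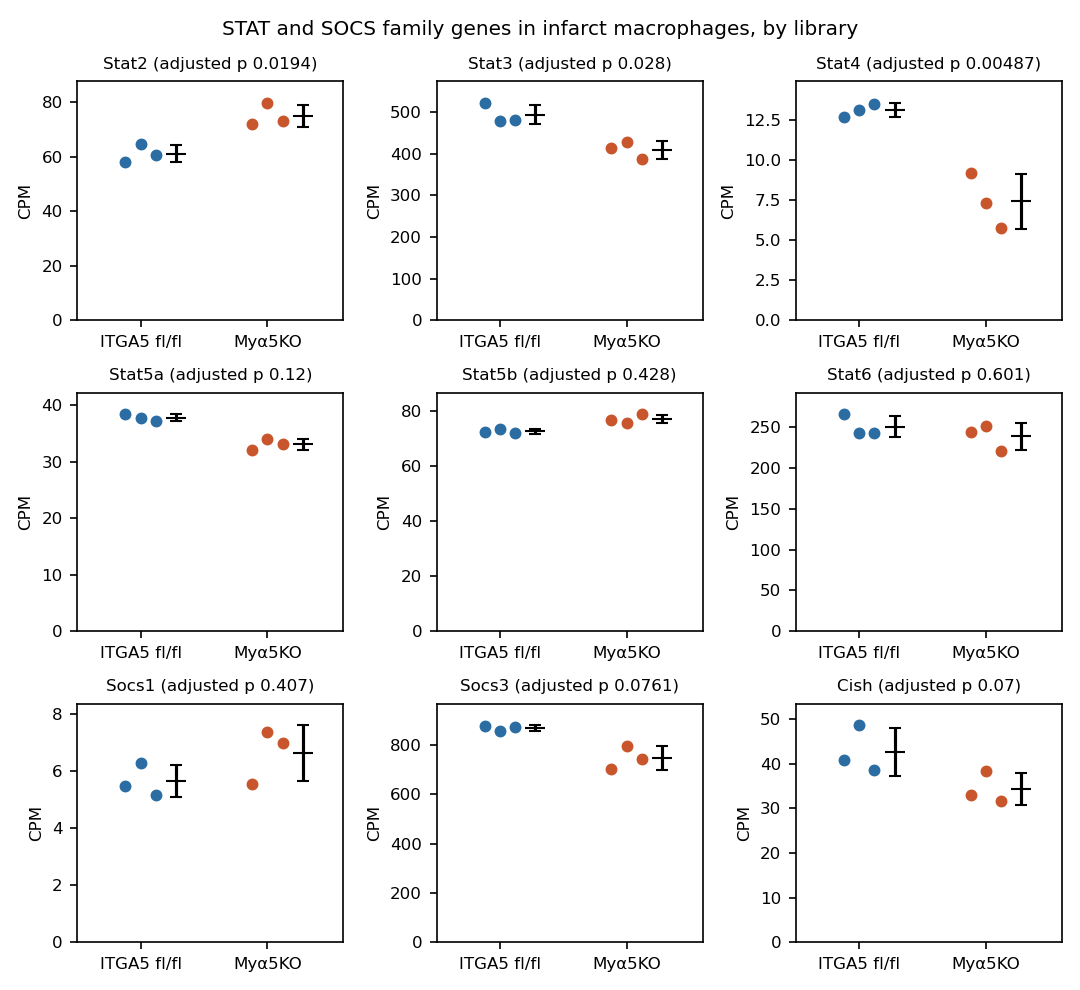
Each panel plots CPM (linear axis from 0) of 1 gene in the 3 ITGA5 fl/fl libraries (blue) and the 3 Myα5KO libraries (orange), with the mean and SD beside the points and the edgeR adjusted p in the title. Stat2 is higher and Stat3 and Stat4 are lower in every Myα5KO library, whereas the points of Stat6 and Socs1 overlap.

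Stat2 (ENSMUSG00000040033), a factor of type I interferon signalling, measured 58.3, 64.6 and 60.7 CPM in the 3 ITGA5 fl/fl (control) libraries, against 72.0, 79.7 and 73.3 CPM in Myα5KO libraries. Every Myα5KO value exceeded every control value. Mean expression rose from 61.2 ± 3.21 to 75.0 ± 4.10 CPM, a log2 fold change of 0.29 (SE 0.069, 95% interval 0.14 to 0.44, edgeR adjusted p = 0.0194). The increase kept its sign in each alternative fit but stood close to the threshold. It was no longer called by edgeR without ITGA5 fl/fl replicate 1 (0.26, adjusted p = 0.0692), without ITGA5 fl/fl replicate 3 (0.29, adjusted p = 0.0709) or without Myα5KO replicate 2 (0.24, adjusted p = 0.106), and adjusted p ranged from 0.00537 to 0.148 over 17 alternative fits.

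Irf9, the DNA-binding partner of STAT2, rose from 51.0 to 61.0 CPM on average (log2 fold change 0.26, edgeR adjusted p = 0.0306). Of the 6 fits that left out 1 library, only that without Myα5KO replicate 1 kept the Irf9 call. It was lost without ITGA5 fl/fl replicate 1 (0.24), 2 (0.27) or 3 (0.26) and without Myα5KO replicate 2 (0.24) or 3 (0.23). The 3 Myα5KO libraries thus had higher values of both Stat2 and Irf9 than the controls.

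Stat3 (ENSMUSG00000004040), through which IL-10 and IL-6 act, measured 521, 479 and 482 CPM in control libraries and 413, 428 and 387 CPM in Myα5KO libraries. The lowest control library lay above the highest Myα5KO library. The mean fell from 494 ± 23.6 to 409 ± 20.7 CPM, a log2 fold change of -0.27 (SE 0.069, 95% interval -0.42 to -0.12, edgeR adjusted p = 0.0280). The gene remained lower in each alternative fit. The edgeR call was lost without ITGA5 fl/fl replicate 1 (-0.23), 2 (-0.29) or 3 (-0.29), without Myα5KO replicate 2 (-0.31, adjusted p = 0.0501), and with library-size scaling (-0.19, adjusted p = 0.0778), and adjusted p over 17 alternatives ranged from 0.00261 to 0.148.

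Stat4 (ENSMUSG00000062939) showed the largest change of the 9 genes. It was a minor transcript, with 12.7, 13.2 and 13.5 CPM in control libraries and 9.21, 7.33 and 5.78 CPM in Myα5KO libraries, from 110 to 238 counts per library. The controls lay within 1 CPM of each other, while the Myα5KO libraries were spread more widely and all lay below them. The mean of 13.1 ± 0.439 CPM fell to 7.44 ± 1.72 CPM, which is 56.6% of control by the fitted log2 fold change of -0.82 (SE 0.149, 95% interval -1.14 to -0.50, edgeR adjusted p = 0.00487). Stat4 was called lower without each of the 6 libraries in turn, with log2 fold changes from -1.01 to -0.67. Of 17 alternatives only limma on unfiltered FPKM lost the call (adjusted p = 0.136, in a range from 0.000250).

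STAT4 is abundant in T and NK cells, and mature NK cells carry CD11b. The summed CPM of 12 T and NK cell markers averaged 35.3 ± 0.540 in control and 43.4 ± 2.15 in Myα5KO libraries, higher where Stat4 was lower. Of these markers 10 had a count in every library and none was at 0 in all. Most of the sum was Cd4 (19.3 CPM in control, 20.9 CPM in Myα5KO), which macrophages can also express, and Cd3e, which defines T cells, held 2 to 6 counts per library. None of the 6 T and NK markers tested was called by edgeR, DESeq2 or limma-voom, and 3 had an unadjusted p under 0.05. The part of such cells in the level of Stat4 was not tested. The 7 dendritic cell markers summed to 93.1 to 121 CPM in control and 113 to 125 CPM in Myα5KO libraries. Exonic sequence amounting to 26.7% of Stat4 is shared on the same strand with the predicted gene Gm28177, which held 0 to 2 counts per library. How reads in the shared stretch were counted is not given, so some may be missing from the level of Stat4.

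Stat5a (ENSMUSG00000004043) and Stat5b (ENSMUSG00000020919) encode closely related factors that respond to GM-CSF, IL-3 and growth hormone. Stat5a measured 38.4, 37.8 and 37.3 CPM in control and 32.1, 34.1 and 33.1 CPM in Myα5KO libraries, so that the groups did not overlap. Its log2 fold change of -0.19 (SE 0.072, 95% interval -0.35 to -0.04) did not pass the test (edgeR adjusted p = 0.120). Stat5b measured 72.3, 73.6 and 72.0 CPM in control and 76.7, 75.8 and 78.8 CPM in Myα5KO libraries. Here the Myα5KO values were the higher ones, but the log2 fold change was 0.09 (SE 0.061, 95% interval -0.04 to 0.22, edgeR adjusted p = 0.428). The ratio of Stat5b to Stat5a per gene length was 2.42, 2.51 and 2.49 in control and 3.08, 2.86 and 3.06 in Myα5KO libraries, and this ratio does not depend on how libraries are scaled. The transcripts share sequence: 8.21% of all 50-base words of Stat5a occur in Stat5b, and 2.21% of its 150-base words, so reads in those stretches cannot be assigned to either gene with certainty.

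Stat6 (ENSMUSG00000002147), the factor of IL-4 and IL-13 signalling, measured 265, 243 and 243 CPM in control and 243, 251 and 220.0 CPM in Myα5KO libraries. The groups overlapped. The log2 fold change of -0.07 (SE 0.072, 95% interval -0.23 to 0.08, edgeR adjusted p = 0.601) changed sign, to 0.01, when libraries were scaled by size alone.

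**Figure D2:**
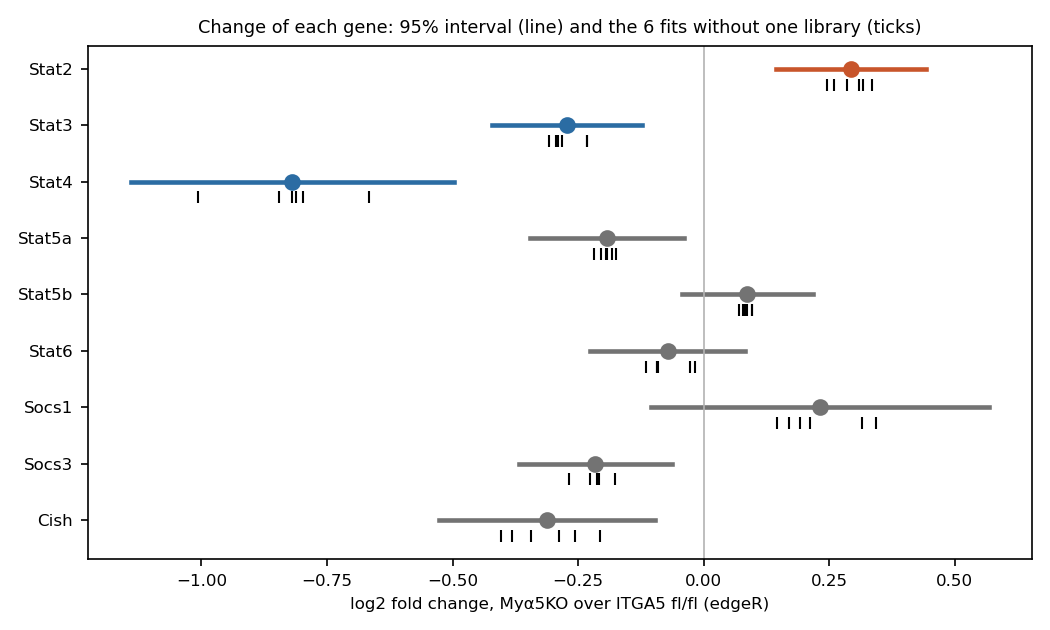
Points give the edgeR log2 fold change (Myα5KO over ITGA5 fl/fl, x axis) of each gene, lines its 95% interval, and black ticks the value in each of the 6 fits without 1 library, with called genes in orange (higher) or blue (lower) and the others in grey. Stat4 lies farthest from 0, at -0.82, and the intervals of Stat5b, Stat6 and Socs1 include 0.

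None of the 3 feedback inhibitors was called by edgeR, although 2 of them, Socs3 and Cish, had an unadjusted p under 0.05, and DESeq2 called 1, Socs3. Socs3 (ENSMUSG00000053113), which restrains signalling through gp130 and the G-CSF receptor, measured 876, 853 and 872 CPM in control and 701, 796 and 742 CPM in Myα5KO libraries. All Myα5KO values lay below all control values. The log2 fold change was -0.22 (SE 0.070, 95% interval -0.37 to -0.06, edgeR adjusted p = 0.0761). DESeq2 gave the same value with an adjusted p of 0.0165, and the adjusted p of 17 alternatives ranged from that value to 0.224.

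Cish (ENSMUSG00000032578), a STAT5 target that damps signalling through STAT5-activating receptors, measured 40.8, 48.6 and 38.6 CPM in control and 33.0, 38.5 and 31.7 CPM in Myα5KO libraries. The groups were separated by a narrow margin, with 38.6 CPM as the lowest control and 38.5 CPM as the highest Myα5KO value. The log2 fold change was -0.31 (SE 0.10, 95% interval -0.53 to -0.10, edgeR adjusted p = 0.0700). Without Myα5KO replicate 2 edgeR called the gene lower (-0.40, adjusted p = 0.0421), and without ITGA5 fl/fl replicate 2 the log2 fold change was -0.21 (adjusted p = 0.293), while 17 alternatives spanned adjusted p from 0.0255 to 0.352. On the opposite strand the predicted genes Gm17040 and Gm17041 overlap 4.07% and 7.46% of the Cish exons and held at most 3 counts per library.

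Socs1 (ENSMUSG00000038037), the main brake on interferon signalling, was the least abundant of the 9, with 82 to 138 counts per library. It measured 5.50, 6.29 and 5.18 CPM in control and 5.54, 7.38 and 6.99 CPM in Myα5KO libraries. The groups overlapped, and the log2 fold change of 0.23 had a wide error (SE 0.156, 95% interval -0.11 to 0.57, edgeR adjusted p = 0.407).

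Levels of different genes were compared per gene length with the deposited FPKM values. In control macrophages Socs3 was by far the most abundant of the set, with 299 FPKM, followed by Stat6 with 56.6 and Stat3 with 51.6 FPKM. The lowest Stat6 library (54.7 FPKM) and the highest Stat3 library (54.6 FPKM) almost met. Stat5b had 13.1 FPKM, Stat2 10.3, Cish 6.62, Stat5a 5.28, Stat4 3.37 and Socs1 1.94. No neighbours in this order had overlapping library ranges within the ITGA5 fl/fl group. The order depends on the gene length used, since the deposited length counts every annotated exon. In TMM-scaled CPM per kilobase of the principal transcript, Stat3 (109) stood above Stat6 (66.2). On that scale the control ranges of Cish (13.5 to 17.0), Stat5b (13.8 to 14.1) and Stat2 (13.2 to 14.7) overlapped.

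**Figure D3:**
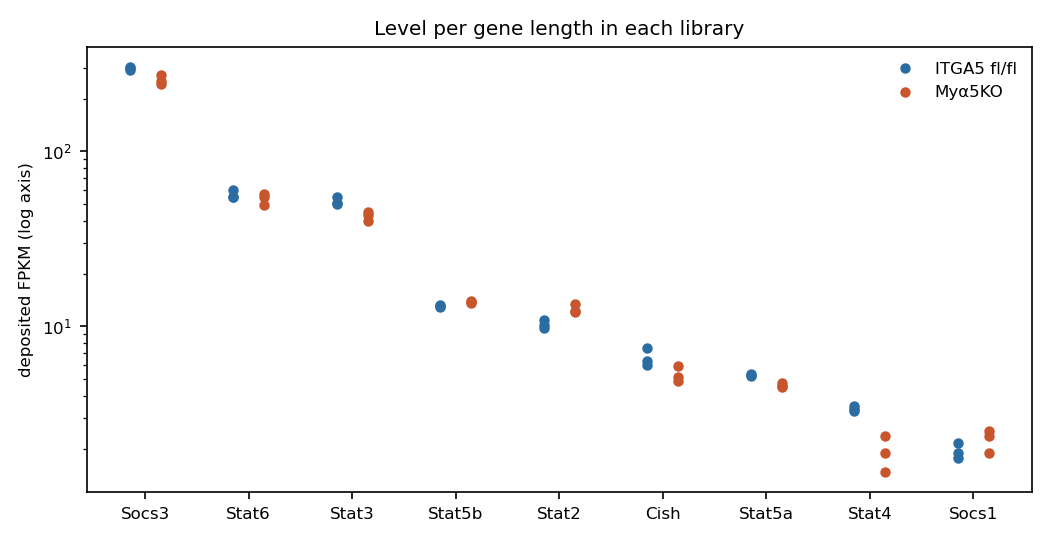
Deposited FPKM (log axis) of each gene in the 3 ITGA5 fl/fl (blue) and 3 Myα5KO (orange) libraries, ordered by the control mean. Values run from 299 FPKM for Socs3 to 1.94 FPKM for Socs1 in control, and the groups are farthest apart for Stat4.

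Shares of the STAT transcripts were compared within each library. Of the summed FPKM of the 6 STAT members, Stat3 made up 36.4% to 37.4% in control and 32.9% to 33.1% in Myα5KO libraries. The share of Stat2 was 6.71% to 7.88% in control and 9.25% to 10.03% in Myα5KO libraries. Stat6 held 39.9% to 41.1% and 40.5% to 42.0%, so that its shares overlapped. These shares come from the same values as the single genes and add no test.

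Among the other 5 SOCS genes, Socs6, an adaptor for ubiquitination of receptor kinases, was called higher, from 41.2 ± 4.44 to 51.1 ± 4.16 CPM (log2 fold change 0.31, edgeR adjusted p = 0.0429). This call was lost without ITGA5 fl/fl replicate 2 (0.28) or 3 (0.26) and without Myα5KO replicate 2 (0.31) or 3 (0.26), and also with at least 10 counts in every library (0.30), with thinning to equal depth (0.29) and with a replicate block (0.32). Its edgeR, DESeq2 and limma adjusted p ranged from 0.0130 to 0.286 over 17 alternatives. Socs2, Socs4, Socs5 and Socs7 were not called, with log2 fold changes of -0.11, 0.03, 0.21 and -0.02.

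The 4 JAK kinases, which stand between receptors and STATs, differed among themselves. Jak2, the kinase of the GM-CSF, IL-3 and interferon-γ receptors, measured 266, 228 and 237 CPM in control and 167, 167 and 134 CPM in Myα5KO libraries. It fell by 0.64 on the log2 scale (SE 0.091, edgeR adjusted p = 0.00104), with no overlap of the groups, and stayed called without any 1 library. Tyk2, which serves the type I interferon and IL-10 receptors, measured 81.8, 78.0 and 76.4 CPM in control and 94.8, 91.1 and 90.2 CPM in Myα5KO libraries. Its increase of 0.23 (SE 0.063, edgeR adjusted p = 0.0393) lost its call in 12 of 17 alternatives, among them DESeq2 (0.22, adjusted p = 0.0558, in a range of 0.00831 to 0.149). These 12 include the fits without ITGA5 fl/fl replicate 1 (0.25), 2 (0.22) or 3 (0.20) and without Myα5KO replicate 1 (0.20) or 2 (0.23). Jak1 and Jak3 were not called, with log2 fold changes of -0.10 each.

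Of 9 other inhibitors of the pathway, 2 were called higher and none lower, where 3.56% of all tested genes were called higher and 5.19% lower. Ptpn6, the gene of the phosphatase SHP-1, rose from 177 ± 11.2 to 256 ± 5.30 CPM (log2 fold change 0.53, edgeR adjusted p = 0.000430). Usp18, which blocks the type I interferon receptor, rose from 13.6 ± 1.11 to 19.2 ± 1.24 CPM (0.49, edgeR adjusted p = 0.00956). Both stayed called without any 1 library. The PIAS proteins, Ptpn1, Ptpn2 and Sh2b3 were not called.

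Receptor chains were counted by the STAT they act through, where 8.75% of all tested genes were called, 3.56% higher and 5.19% lower. Of 10 tested chains that act mainly through STAT3, none was called by edgeR and none had an unadjusted p under 0.05, and DESeq2 and limma-voom called none either. Of 13 tested chains that act mainly through STAT5, 2 were called lower: Csf2rb, the common β chain of the GM-CSF, IL-3 and IL-5 receptors, fell from 552 ± 35.6 to 410 ± 56.9 CPM (-0.43, edgeR adjusted p = 0.0123), and Csf2rb2 from 253 ± 9.83 to 188 ± 23.6 CPM (-0.43, edgeR adjusted p = 0.00792). These are near-identical copies, so the split of reads between them is uncertain. Il4ra, the chain that recruits STAT6, stood just outside the threshold (-0.31, edgeR adjusted p = 0.0507), below control in all 3 Myα5KO libraries, and was called by DESeq2 and limma-voom. By edgeR no tested chain of the STAT6, STAT4 or interferon receptors was called, while 2 STAT6 and 2 interferon receptor chains had an unadjusted p under 0.05. Of these, Il13ra1 was higher (0.197), whereas Il4ra, Ifnar1 (-0.165) and Ifnar2 (-0.182) were lower.

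The ligands that were called were all lower, where 5.19% of all tested genes were called lower and 3.56% higher. Of 23 cytokine genes that signal through STATs, 11 were abundant enough to test, and 4 were lower: Il10 (-1.12), Csf3 (-1.09), Il6 (-0.95) and Lif (-0.88). All 4 act through STAT3, and all 4 stayed called by edgeR without any 1 library. Il10 fell from 447 ± 68.5 to 206 ± 20.8 CPM (edgeR adjusted p = 5.60e-05) and Il6 from 49.2 ± 12.8 to 25.5 ± 4.84 CPM (edgeR adjusted p = 0.00390). Osm, another ligand that acts through STAT3, was not called, at 344 ± 19.7 CPM in control and 322 ± 34.1 CPM in Myα5KO libraries (-0.10, edgeR adjusted p = 0.525). The messages of the interferons Ifnb1 and Ifng and of Csf2, which encodes GM-CSF, did not reach the count filter.

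Targets of the STATs were grouped by a factor that can induce them, and a gene could be on several lists. Of 10 tested targets of the complex of STAT2 and IRF9, 7 were higher and none lower, with a median of 0.44. Over all tested genes 3.56% were called higher. The 7 include Irf9 itself, which was described above. Isg15 (-0.02), Rsad2 (0.105) and Ifit1 (0.45) were not called. Among those called, Oasl2, a sensor of the antiviral response, rose by 0.60, Ifit2 by 0.56, Ifit3 by 0.56 and Irf7 by 0.45 (edgeR adjusted p = 0.00142 to 0.00917). These 4 genes stayed called without any 1 library.

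Of 14 tested genes on the list of STAT3 targets, 4 were called lower, 1 was called higher and 9 were not called, with a median of -0.23. Over all tested genes 5.19% were called lower and 3.56% higher. The list is not exclusive, since Pim1 and Bcl2l1 are also on the STAT5 list. The part of STAT3 in these values was not tested. Vegfa, the angiogenic growth factor, fell from 664 ± 37.7 to 502 ± 73.0 CPM (-0.40, edgeR adjusted p = 0.0189), Bcl3 fell by 0.31 and Bcl2l1, a survival factor, by 0.30. Vegfa missed the threshold when ITGA5 fl/fl replicate 1 (-0.39) or 2 (-0.38) was left out. Bcl3 was lost without ITGA5 fl/fl replicate 2 (-0.30) or 3 (-0.30) or Myα5KO replicate 1 (-0.27), and Bcl2l1 without ITGA5 fl/fl replicate 1 (-0.27) or 3 (-0.29) or Myα5KO replicate 1 (-0.24). Both also lost their call with library-size scaling (-0.23 and -0.22). The exception was Ccnd1, which encodes cyclin D1 and rose by 0.46 (edgeR adjusted p = 0.00387), called without any 1 library. Pim1, a kinase induced by STAT3 and STAT5, was lower in all 3 Myα5KO libraries (-0.23) without passing the test (edgeR adjusted p = 0.0714).

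Targets of STAT5 and STAT6 showed no common direction, where 3.56% of all tested genes were called higher and 5.19% lower. Of 7 tested STAT5 targets, 1 was higher and 1 lower, the latter being Bcl2l1, which is on both lists. Ccnd2 rose by 0.33 (edgeR adjusted p = 0.0350) and lost its call without ITGA5 fl/fl replicate 1 (0.25) or 3 (0.33) and without Myα5KO replicate 1 (0.29), 2 (0.35) or 3 (0.34). Of 14 tested STAT6 targets, 2 were higher and 2 lower, with a median of 0.14. Tgm2, a transglutaminase of alternatively activated macrophages, fell from 967 ± 21.7 to 638 ± 83.2 CPM (-0.60, edgeR adjusted p = 0.00141) and stayed called without any 1 library.

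Arg1, which encodes arginase 1, varied widely among control libraries. It measured 101, 592 and 291 CPM in control and 127, 103 and 95.1 CPM in Myα5KO libraries. ITGA5 fl/fl replicate 1 lay within the Myα5KO range, so the groups overlapped. The edgeR log2 fold change of -1.60 became -0.86 without ITGA5 fl/fl replicate 2 and was called neither then nor without ITGA5 fl/fl replicate 3 (-1.68) or Myα5KO replicate 2 (-1.56) or 3 (-1.51). Klf4 (0.40) was lost without ITGA5 fl/fl replicate 2 (0.38) or 3 (0.28) or Myα5KO replicate 2 (0.38) or 3 (0.34). Clec10a (0.37) was lost without ITGA5 fl/fl replicate 1 (0.28) or 2 (0.35) or Myα5KO replicate 1 (0.31) or 3 (0.36).

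**Figure D4:**
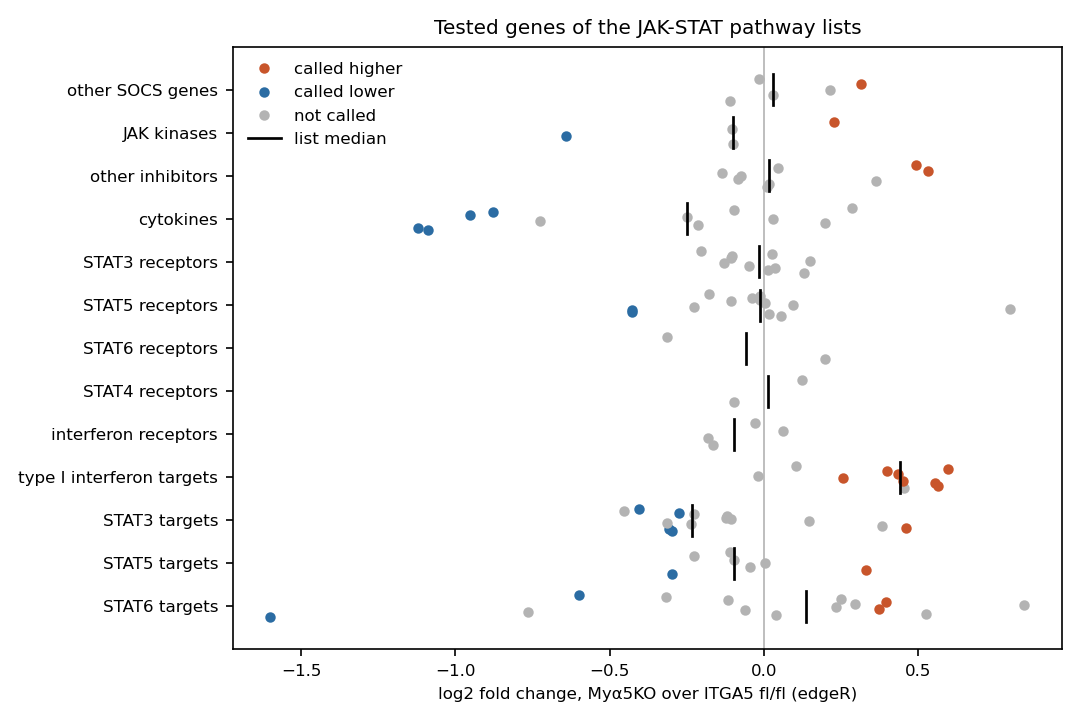
Each point is the edgeR log2 fold change (Myα5KO over ITGA5 fl/fl, x axis) of a tested gene on a list of the JAK-STAT pathway (rows), in orange where called higher, blue where called lower and grey where not called, with a bar at the list median. The list of type I interferon targets has a median of 0.44 and no gene called lower, whereas the STAT3 target list has a median of -0.23.

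Over all pathway lists together, without the 9 members, 108 of 123 genes were tested. Of these, 21 were called higher and 13 lower, with a median of 0.01. The called share was 31.5%, where 8.75% of all tested genes were called, 3.56% higher and 5.19% lower. Counts of the single lists above stand beside the same shares of all tested genes. All these lists were chosen with earlier results of these data known, so the comparisons of shares are no test of enrichment. Genes of the pathway lists overlap in what regulates them and many are induced together, so they are not independent of each other.

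Marker transcripts of the cells that the suspension could hold were summed for each library. Summed monocyte markers lay at 1294 to 1453 CPM in control and 1718 to 2001 CPM in Myα5KO libraries, with 4 of 8 called higher. Granulocyte markers summed to 37.4 to 54.6 and 72.0 to 193 CPM, with 5 of 7 tested called higher although Ly6G-positive cells had been depleted. Macrophage markers summed to 15090 to 15330 and 13280 to 14090 CPM, where Cd14 was called lower (4755 and 3489 CPM), Fcgr1, which encodes CD64, was called higher (195 and 235 CPM), and the other 7, among them Adgre1, Csf1r and Mertk, were not called. B cell sums were 75.9 to 115 and 113 to 184 CPM, fibroblast sums 1618 to 1897 and 1209 to 1578 CPM, and cardiomyocyte sums 20.9 to 23.0 and 12.9 to 16.9 CPM. Endothelial sums were 273 to 312 and 301 to 332 CPM, erythroid sums 4.63 to 8.82 and 4.05 to 5.63 CPM, and mast cell and eosinophil sums 14.5 to 20.1 and 17.2 to 18.7 CPM. Mitochondrial genes took 0.976% ± 0.0286 and 1.04% ± 0.0372 of counts. Over these 12 measures the exact two-sided permutation test gave p = 0.1 at the lowest, the smallest value that 3 against 3 libraries allow, and an adjusted p of 0.171. The part of these cells in the values of the STAT and SOCS genes was not tested.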

How the data were processed

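Infarct macrophages (3 ITGA5 fl/fl and 3 Myα5KO libraries) were sequenced as 150 bp paired-end reads from polyadenylated RNA. Per the submitters' processing notes and the study's methods, the authors aligned filtered reads to mm10 (GRCm38.p6) with TopHat2 2.0.9, assembled transcripts with Cufflinks 2.1.1 and counted reads per gene with HTSeq 0.6.1. The handling of multi-mapped reads and of strand is not given in the sources used here, which leaves genes that are near-identical or overlap uncertain. The deposited counts are whole reads per gene without normalization, and 27687 genes had a count. The deposited FPKM values equal the count divided by gene length and by a constant per library that was proportional to its DESeq2 size factor. Both tables also list gene annotation, which was used for names, positions and lengths.

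edgeR 4.0.16 (run in R 4.3.3) supplied the quasi-likelihood test on counts, with TMM scaling, no covariate and a filter by expression at its defaults, a minimum count of 10 and a total of 15. P-values are two-sided, adjusted by Benjamini-Hochberg over 14522 genes and called at 0.05 or less. The study used DESeq2, which was run as an alternative (version 1.42.0). The other alternatives were limma-voom and limma with trend (limma 3.58.1) on log2(FPKM + 1) and log2(FPKM + 0.1), keeping genes that reached an FPKM of 1 in 3 or more libraries, the former also without that filter, 3 other scalings, no count filter, a minimum of 10 counts in each library, thinning to 15424451 counts, a replicate block, a minimum of 1.5-fold, and each library left out in turn. Where 17 alternatives are quoted, the fits without a count filter and with a minimum of 1.5-fold are not among them. Marker sums were compared by an exact two-sided permutation test. Simulated counts were used to test the edgeR, DESeq2, limma-voom and limma with trend fits only.

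The members, gene lists and tests were chosen with earlier results of these data known, and the pattern of 2 GAAA with 2 bases between was added after seeing the data. Genes named are the members, Itga5, the other SOCS genes, the JAK genes, Irf9, and up to 4 called genes of each pathway list with the largest change and a mean of at least 100 counts. Il4ra, Il13ra1, Ifnar1, Ifnar2, Pim1, Osm, Isg15, Ifit1, Rsad2, the cytokines below the filter, uncalled inhibitors and single cell type markers were named after their values were seen. Promoters came from RefSeq (GRCm38.p6), and transcript structure and shared sequence from GENCODE M21. Replicate numbers did not pair libraries, since the correlations of same-numbered libraries ran from -0.0749 to 0.0518. Replicate pairs differed by at least 5.15 times the sampling noise (chi-square per degree of freedom), so none was a repeat deposit. Reads were amplified without molecular identifiers, so counting error is a lower limit on the error. The p-values set the group difference against the spread between the 3 libraries of each group. In edgeR this spread was moderated over all tested genes (prior degrees of freedom 9.50). A further gene and list fixed for the pathway are not reported here but count in its totals. In vitro libraries and single cells of the study were not analysed here.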

Additional observations from a re-analysis of the deposited data

How the results depend on the processing

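With 3 libraries per group, changes near 0.2 to 0.3 on the log2 scale stood at the threshold: Stat2, Stat3, Tyk2, Irf9 and Socs6 passed or missed with the library left out, and Stat4 and Jak2 did not. No member that was called changed direction in any alternative. Leaving out each library gave 616 to 1091 calls over all genes (187 to 420 higher, 429 to 671 lower), 1 to 3 among the members (0 to 1 higher, 1 to 2 lower) and 22 to 29 among pathway genes (13 to 19 higher, 9 to 14 lower).

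The fits on FPKM called fewer genes, and the cause was not tested. With log2(FPKM + 1) there were 472 calls (150 higher, 322 lower), with 1 member, Stat4, lower and 0 higher, and 10 pathway genes (6 higher, 4 lower). With log2(FPKM + 0.1) there were 448 (142 higher, 306 lower), again 1 member lower and 10 pathway genes (6 higher, 4 lower). Without the FPKM filter there were 10 (2 higher, 8 lower) and 0 members or pathway genes, although 6 members had an unadjusted p under 0.05. Against a minimum of 1.5-fold edgeR called 15 genes (1 higher, 14 lower), 0 members (1 at an unadjusted p under 0.05) and 1 pathway gene (0 higher, 1 lower). Library-size scaling gave 1212 higher calls and left 1 member lower, and no count filter gave 798 higher. With library-size scaling the marker sums of macrophages differed by -737.5 CPM (-1545 with TMM) and those of T and NK cells by 10.2 CPM (8.03 with TMM).

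The replicate numbers did not pair the libraries. With the replicate block edgeR called 1181 genes, 4 members (Cish in addition) and 31 pathway genes, and not every library correlated best with its own number.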
